A study of Homo sapiens with 26 samples.

Results

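The comparison described here set LoVo cells carrying PIK3CA E545K against LoVo cells with wild-type (WT) PIK3CA, both grown in conditioned medium from senescent cells. LoVo is a human colorectal cancer cell line. Its members were 4 libraries of the 26 in the series, 2 of E545K cells and 2 of WT cells, taken by their labels, and all 12607 genes that passed a filter on low values were examined. The mutations were brought into LoVo with lentiviral vectors. The series names 2 clones of each mutation, and which clone the conditioned medium libraries came from is not given in the sources used here, so a difference between lines may belong to a clone and cannot be told apart from the mutation. Other groups used below are H1047R cells in conditioned medium, and E545K and WT cells in dimethyl sulfoxide (DMSO, the solvent control) or in palbociclib at 0.5 µM for 72 h, with 2 libraries each. The protocols name both 72 h and 48 h for collection of control cells. The cells were kept in DMEM with 10% fetal bovine serum. The medium was collected after cells had been treated with 0.5 µM palbociclib, or DMSO as its control, for 72 h. Which cells conditioned it, how long the recipient cells stayed in it, and whether palbociclib remained in it are not given in the sources used here.

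PIK3CA encodes the catalytic subunit p110α of phosphoinositide 3-kinase, which makes the membrane lipid that recruits AKT. E545K lies in the helical domain and relieves inhibition by the regulatory subunit, while H1047R lies in the kinase domain and strengthens membrane binding. Palbociclib inhibits CDK4 and CDK6, and cells held in arrest by it can become senescent and secrete cytokines, chemokines, proteases and growth factors. Conditioned medium passes such factors on to other cells. Among the pathways that secreted factors can engage, interferons signal through JAK kinases to a transcription factor complex that includes STAT2 and IRF9 and binds interferon-stimulated response elements in the promoters of antiviral genes.

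Levels are in FPKM, a fragment count divided by gene length and library size, and changes are differences of log2(FPKM + 1) with their standard error (SE). Adding 1 makes a change understate the fold of a low gene. A gene was called where limma's adjusted p was below 0.05, and "rose", "fell" and "changed" are used of called genes. The labels do not say whether the 2 libraries of a group came from separate cultures, so the spread between them may be technical. The p-values rest on that spread pooled over all 9 groups of the fit, not on the compared libraries alone.

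PIK3CA mRNA was at 15.2 and 16.3 FPKM in the E545K libraries, against 6.20 and 5.93 FPKM in the WT libraries. The log2 change was 1.24 (SE 0.11, limma adjusted p = 1.09e-06). H1047R cells in the same medium had 6.79 and 5.75 FPKM. FPKM per gene does not separate the mutant from the WT transcript. The epithelial genes KRT8 and EPCAM marked all 4 libraries as epithelial. KRT8 was at 4960 and 4895 FPKM in E545K, against 4288 and 4150 FPKM in WT, and EPCAM at 389 and 396 FPKM, against 352 and 353 FPKM. The intestinal markers KRT20 and CDX1 were near 0, reaching at most 1.01 FPKM. Of 18 markers of fibroblasts, endothelium and immune cells in the table, the sum was 40.4 to 42.4 FPKM in E545K and 48.2 to 56.2 FPKM in WT. CD68 and COL3A1 made up most of it, and DCN, PECAM1 and CDH5 were at or near 0 in both lines. The summed FPKM of the 4 libraries lay between 446862 and 466765, and the log levels of replicates correlated at 0.996 to 0.997. Read depth is unknown from FPKM. Ribosomal protein genes took 17.3% and 17.5% of summed FPKM in E545K, against 21.5% and 21.6% in WT, and the part of that difference in the results below was not tested.

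In conditioned medium 2284 of 12607 genes rose in E545K relative to WT and 1986 fell, which is 18.1% and 15.8% of the genes tested and 33.9% together. By at least 2-fold, 221 rose and 181 fell. The genes furthest above WT were interferon-stimulated genes, the secreted proteins LCN2, REG4 and CCL20 and mesothelin, and those furthest below were vimentin, collagen III and other mesenchymal genes, a globin locus and a MAGE gene. The balance of directions depended on the scaling. With each library centred on its median, 1599 genes were higher and 2575 lower, and with quantile normalization 2058 were higher and 2352 lower. Rescaled to TPM, 2595 were higher and 1595 lower. The median change of all genes was 0.03, and each of the named changes of at least 1 kept its direction under all these scalings. Without E545K replicate 1 the total fell to 2720, with 1393 higher and 1327 lower. Without E545K replicate 2 there were 1481 higher and 1427 lower.

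**Figure D1:**
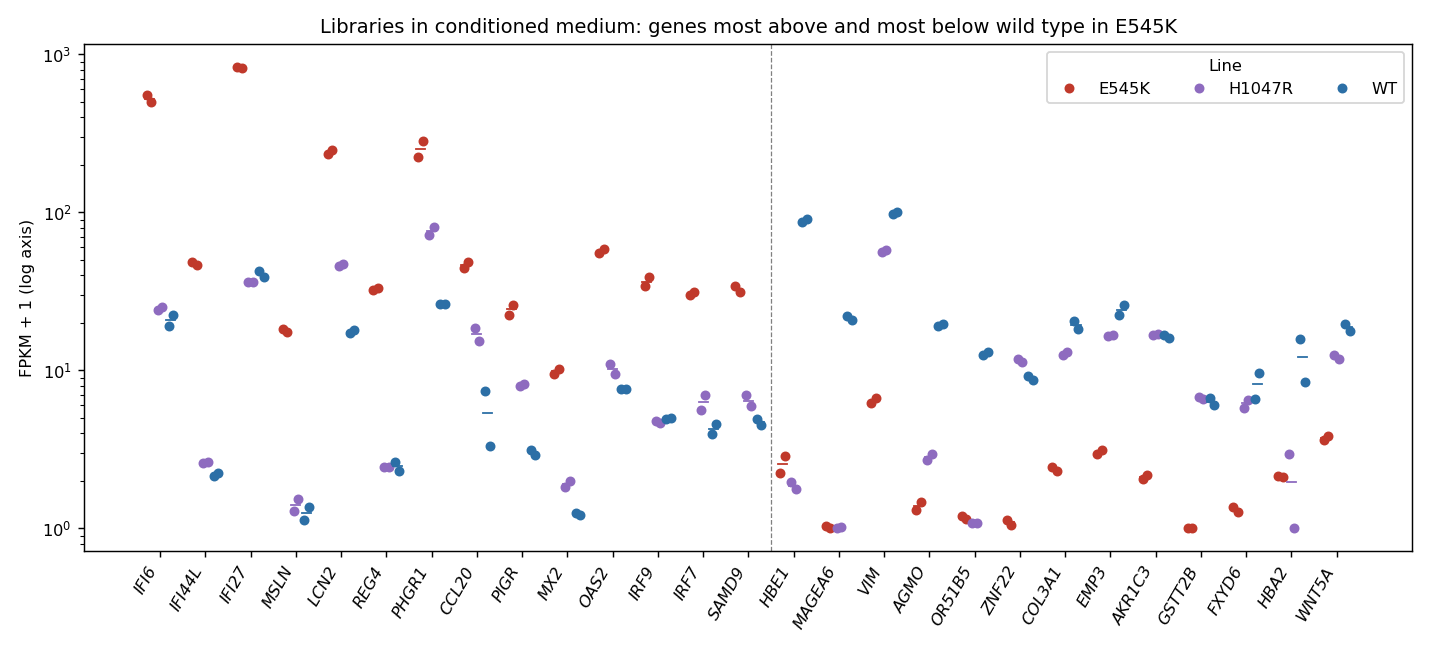
FPKM + 1 on a log axis for genes among the 14 furthest above (left of the dashed line) and the 14 furthest below WT, of called genes with a mean of at least 5 FPKM in the higher line, 1 point per library with a bar at the group mean, for E545K, H1047R and WT in conditioned medium. IFI6 reads 553 and 496 FPKM in E545K, against 18.0 and 21.5 FPKM in WT, and VIM 5.19 and 5.66 FPKM, against 96.0 and 99.4 FPKM.

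**Figure D2:**
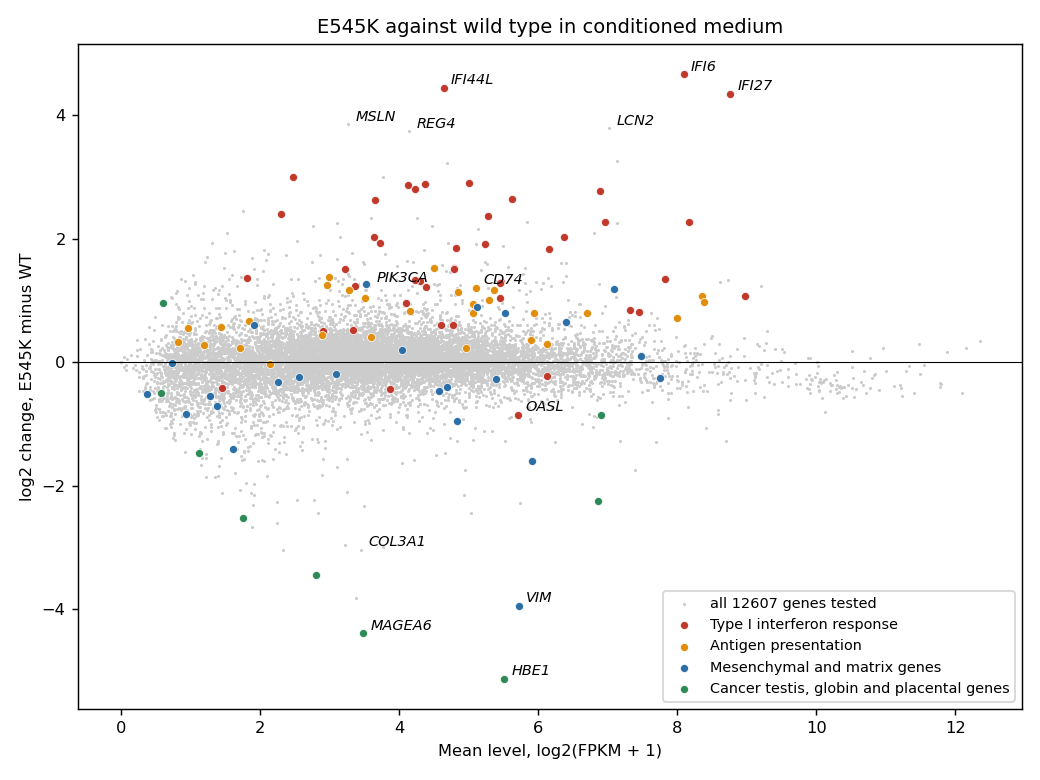
Log2 change, E545K minus WT in conditioned medium, of all 12607 genes against their mean level, with 4 gene lists coloured. Interferon genes reach 4.66 (IFI6) at the top, and HBE1 lies at -5.12 and VIM at -3.94 at the bottom.

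Type I interferon response genes were the group furthest above WT. Of 45 listed genes, 41 rose and 3 fell in E545K, with a median log2 change of 1.51, against 0.03 over all genes. IFI6, a mitochondrial protein induced by interferon, stood at 553 and 496 FPKM in E545K, against 18.0 and 21.5 FPKM in WT. Both E545K libraries were far above both WT libraries (log2 change 4.66, SE 0.12, limma adjusted p = 5.32e-13). In bulk RNA, more responding cells and more RNA per cell cannot be told apart.

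IFI27 had 831 and 819 FPKM in E545K, against 41.6 and 37.9 FPKM in WT (log2 change 4.34). IFI44L had 47.9 and 45.3 FPKM in E545K, against 1.15 and 1.23 FPKM in WT (log2 change 4.44). The promoters of these 3 genes, the furthest above WT in the interferon list, are given as the 250 bases before the RefSeq start in GRCh38.p14, 5′ to 3′ on the strand of the gene, with matches to the core of the response element (GAAA, any 2 bases, GAAA) on either strand in capitals. They lie at chr1:27672193-27672442 (IFI6, minus strand), chr1:78620198-78620447 (IFI44L, plus strand) and chr14:94110486-94110735 (IFI27, plus strand).
IFI6: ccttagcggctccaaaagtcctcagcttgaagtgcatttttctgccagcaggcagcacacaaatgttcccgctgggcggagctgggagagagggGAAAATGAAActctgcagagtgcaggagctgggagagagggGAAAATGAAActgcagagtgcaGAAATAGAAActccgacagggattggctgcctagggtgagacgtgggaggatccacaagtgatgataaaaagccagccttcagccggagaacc
IFI44L: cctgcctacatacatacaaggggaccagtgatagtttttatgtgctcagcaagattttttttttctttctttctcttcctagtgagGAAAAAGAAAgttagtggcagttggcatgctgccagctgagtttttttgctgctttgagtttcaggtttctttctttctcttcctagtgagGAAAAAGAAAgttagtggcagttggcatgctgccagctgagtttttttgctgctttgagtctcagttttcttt
IFI27: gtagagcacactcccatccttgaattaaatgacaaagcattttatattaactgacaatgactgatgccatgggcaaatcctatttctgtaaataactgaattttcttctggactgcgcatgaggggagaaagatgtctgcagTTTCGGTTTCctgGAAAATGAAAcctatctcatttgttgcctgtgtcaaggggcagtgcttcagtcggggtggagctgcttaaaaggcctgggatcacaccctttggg
IFI6 holds 3 matches, at 156, 115 and 93 bases before the start, and IFI44L holds 2, at 164 and 73 bases. IFI27 holds 1 match on each strand, at 108 and 95 bases. Of the 41 interferon genes that rose, 33 had a promoter in the RefSeq table, and 20 of these (60.6%) held the core, whose matches can overlap each other. It occurred in 240 of 10175 promoters of genes tested (2.36%) and in 839 of all 27305 promoters (3.07%). Of 14 promoters of NF-kB target genes that rose, none held it, and 6 of 19 promoters of antigen presentation genes did. A match is a description of letters in this window, not evidence of binding. The lists are made of known target genes, so a high share can follow from their choice and is no evidence about E545K. HERC5, which fell, also held matches to the response element core, and EMP3, among the genes furthest below WT, held 1.

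Antiviral effectors of the list rose too. The dynamin-like GTPase MX2 was at 8.50 and 9.21 FPKM in E545K, against 0.25 and 0.22 FPKM in WT (log2 change 3.00). OAS2, which makes the oligoadenylate that activates RNase L, was at 54.0 and 57.4 FPKM, against 6.63 and 6.59 FPKM in WT (log2 change 2.90). SAMD9, a growth-restricting antiviral factor, was at 33.1 and 30.5 FPKM, against 3.89 and 3.54 FPKM in WT (log2 change 2.80).

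The transcription factors of the pathway rose as well. IRF9, the DNA-binding partner of STAT2, was at 33.2 and 37.8 FPKM in E545K, against 3.90 and 4.00 FPKM in WT (log2 change 2.88, SE 0.09, limma adjusted p = 3.5e-12). IRF7, which drives interferon-alpha genes, was at 29.1 and 30.5 FPKM, against 2.93 and 3.56 FPKM in WT (log2 change 2.86). STAT2, named after its values were seen as is MX1, was at 21.7 and 21.2 FPKM, against 10.1 and 11.1 FPKM in WT (log2 change 0.95), and MX1 at 211 and 201 FPKM, against 29.4 and 29.1 FPKM (log2 change 2.78).

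Not every interferon gene followed. The 3 that fell, named after their values were seen, were OASL, IFIT2 and HERC5, all antiviral effectors. OASL was at 34.6 and 38.1 FPKM in E545K, against 62.4 and 70.1 FPKM in WT (log2 change -0.85, limma adjusted p = 4.05e-05). IFIT2 had a log2 change of -0.43 and HERC5 of -0.42. LY6E, at 62.0 and 64.7 FPKM in E545K and 71.8 and 75.9 FPKM in WT, was not called (limma adjusted p = 0.163). CXCL10, a chemokine that interferons induce, was at 5.88 and 6.90 FPKM in E545K, against 6.11 and 6.43 FPKM in WT (limma adjusted p = 0.924). Among other genes looked at after the result was known, CXCL11 was higher in E545K, at 10.65 and 11.28 FPKM, against 7.64 and 6.92 FPKM in WT. GBP1 was at 5.97 and 6.66 FPKM in E545K, against 3.68 and 2.96 FPKM in WT. GBP2 was at 1.55 and 1.84 FPKM in E545K, against 1.42 and 1.97 FPKM in WT.

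Ligand and receptor genes of the pathway were chosen after their values were seen and are described without a test. The interferon gene IFNB1 was at 0 and 0.07 FPKM in E545K and 0.07 FPKM in both WT libraries, and IFNL1 at 0.08 and 0.07 FPKM in E545K, against 0.30 and 0.61 FPKM in WT. The receptor gene IFNAR1 was at 13.8 and 13.9 FPKM in E545K, against 12.1 and 12.1 FPKM in WT, and IFNAR2 at 15.1 and 15.8 FPKM, against 17.6 and 17.3 FPKM. Both ligand genes were below 1 FPKM in all 4 libraries, and IFNL1 was lower in both E545K libraries.

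**Figure D3:**
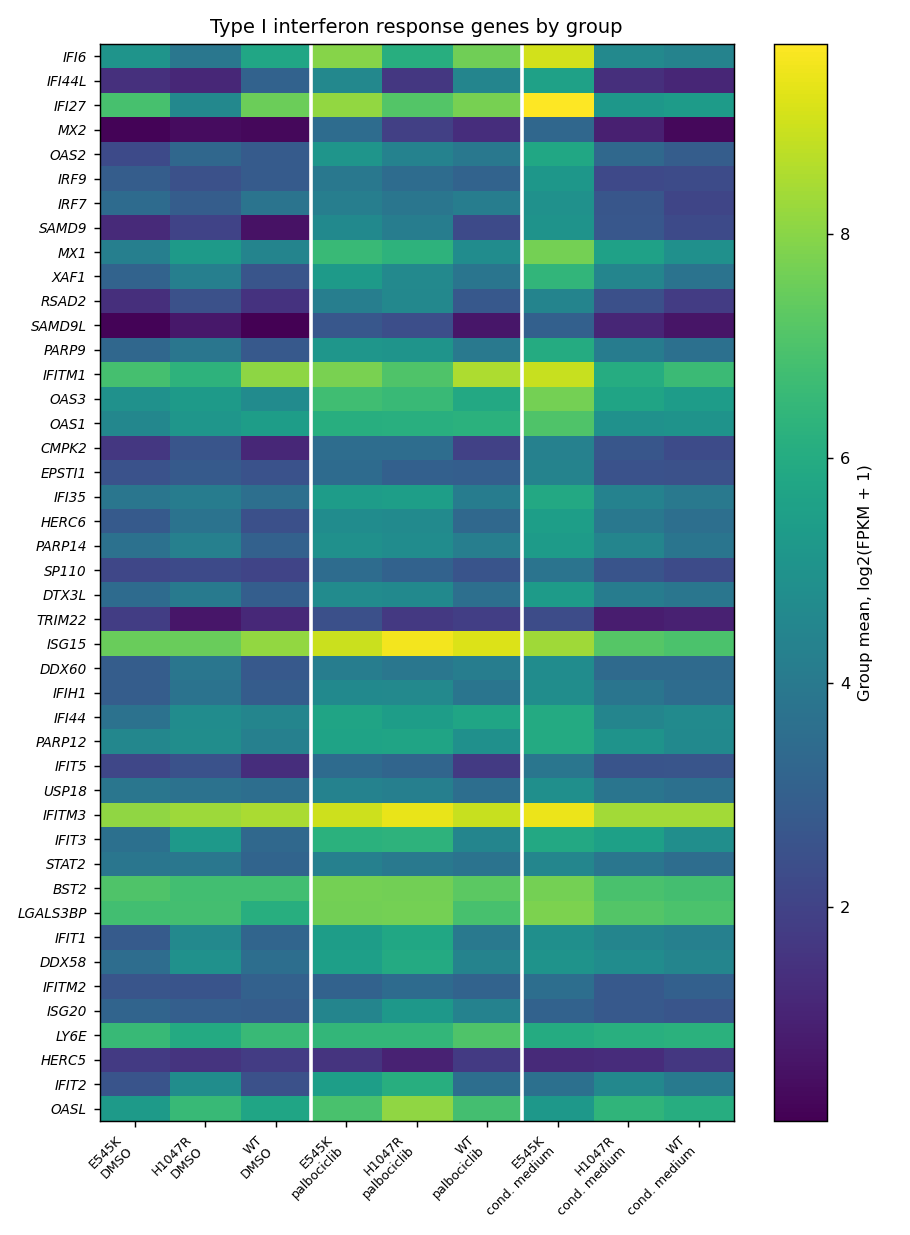
Group means of log2(FPKM + 1) for interferon response genes (rows, in order of their change in conditioned medium) in E545K, H1047R and WT cells in DMSO, palbociclib and conditioned medium (columns, 2 libraries each). E545K in conditioned medium is the brightest of the 9 columns for IFI6, at a mean of 524 FPKM, and for IFI27, at 825 FPKM.

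Antigen presentation genes were higher in E545K. Of 29 listed genes, 24 rose and none fell, with a median log2 change of 0.80. NLRC5, the activator of MHC class I genes, was at 9.90 and 10.1 FPKM in E545K, against 3.35 and 3.89 FPKM in WT (log2 change 1.26, SE 0.09, limma adjusted p = 6.42e-08). PSMB9, an immunoproteasome subunit, was at 56.2 and 56.1 FPKM, against 24.02 and 24.82 FPKM in WT (log2 change 1.17). Class II genes were in the group too. CD74, the class II invariant chain, was at 47.8 and 46.5 FPKM in E545K, against 20.6 and 19.2 FPKM in WT (log2 change 1.20), and HLA-DPA1 at 12.1 and 12.7 FPKM, against 4.76 and 5.12 FPKM (log2 change 1.17). CIITA, the class II activator, was at 2.54 FPKM in both E545K libraries, against 2.03 and 2.02 FPKM in WT, and was not called (limma adjusted p = 0.0696). Some HLA genes are highly similar to one another, so how reads were divided among those is uncertain.

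NF-kB target genes rose in 15 of 30 cases, and 1 fell, with a median log2 change of 0.31. ICAM1, an adhesion receptor for leukocytes, was at 7.22 and 6.96 FPKM in E545K, against 0.54 and 0.47 FPKM in WT (log2 change 2.43, SE 0.10, limma adjusted p = 8.06e-11). TNFAIP2 was at 34.2 and 36.5 FPKM, against 6.70 and 7.07 FPKM in WT (log2 change 2.20), and NFKBIZ, a nuclear NF-kB cofactor, at 19.8 and 19.9 FPKM, against 7.30 and 7.14 FPKM (log2 change 1.34). The gene that fell was LTB, lymphotoxin beta, at 9.40 and 10.5 FPKM in E545K, against 23.6 and 22.7 FPKM in WT (log2 change -1.14). The feedback inhibitor NFKBIA was not called, at 219 and 226 FPKM in E545K and 232 and 208 FPKM in WT (limma adjusted p = 0.906). Of 14 NF-kB target promoters among the genes that rose, 5 (35.7%) held an NF-kB core (GGGA, any 2 bases, TTCC). Matches on either strand within 250 bases were counted, and 1.42% of all promoters held one. The list is made of known NF-kB targets, so this share is no evidence about E545K.

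Chemokines and secreted factors of senescent cells were split, with 11 of 41 genes higher and 12 lower, or 6 and 10 without WT replicate 2. CCL20, which attracts CCR6-bearing lymphocytes, was at 43.3 and 47.4 FPKM in E545K, against 6.35 and 2.32 FPKM in WT (log2 change 3.23, SE 0.25, limma adjusted p = 2.07e-07). The 2 WT libraries differed from each other, and both lay below both E545K libraries. VEGFA, an angiogenic factor, was at 37.1 and 40.9 FPKM in E545K, against 19.2 and 18.8 FPKM in WT (log2 change 1.00). TIMP2, an inhibitor of matrix proteases, was at 17.6 and 17.7 FPKM, against 7.93 and 8.62 FPKM in WT (log2 change 1.01). Among the genes that fell were the alarmin IL1A, at 2.81 and 3.28 FPKM in E545K, against 12.2 and 12.1 FPKM in WT (log2 change -1.70), and 2 binding proteins of insulin-like growth factors. IGFBP2 was at 0.49 and 0.27 FPKM, against 4.95 and 5.27 FPKM in WT (log2 change -2.15), and IGFBP6 at 8.05 and 8.59 FPKM, against 24.9 and 28.8 FPKM (log2 change -1.58). CXCL8, the neutrophil chemokine of the senescent secretome, was not called, at 46.6 and 51.8 FPKM in E545K and 65.4 and 46.3 FPKM in WT (limma adjusted p = 0.536).

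Several genes of mucosal defence, taken from different lists and from the genes furthest above WT, rose. LCN2, lipocalin 2, which withholds iron from bacteria, was at 235 and 249 FPKM in E545K, against 16.2 and 17.0 FPKM in WT (log2 change 3.79, SE 0.10, limma adjusted p = 9.06e-13). REG4, a lectin of secretory cells, was at 31.4 and 32.5 FPKM, against 1.64 and 1.31 FPKM in WT (log2 change 3.74). PIGR, which carries IgA across the epithelium, was at 21.5 and 25.0 FPKM, against 2.14 and 1.91 FPKM in WT (log2 change 3.00). In all 3 genes the E545K libraries stood far above the WT libraries. PI3, the elastase inhibitor elafin, was at 631 and 586 FPKM in E545K, against 251 and 230 FPKM in WT (log2 change 1.34). DUOX2, an oxidase of the gut surface, went the other way, at 42.5 and 42.8 FPKM in E545K, against 97.3 and 116 FPKM in WT. Its maturation factor DUOXA2 was lower in E545K too, and both were chosen after their values were seen.

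The enterocyte and goblet cell list held 14 genes that rose and 2 that fell of 19, with a median log2 change of 0.49. PHGR1, a gene of the mature intestinal epithelium, was at 223 and 283 FPKM in E545K, against 25.4 and 25.3 FPKM in WT (log2 change 3.26). GPA33, an intestinal surface antigen, was at 35.0 and 35.6 FPKM, against 15.9 and 16.3 FPKM in WT (log2 change 1.09). CEACAM1, an adhesion molecule, fell to 24.2 and 27.0 FPKM in E545K, against 55.3 and 72.9 FPKM in WT (log2 change -1.28), as did the mucin MUC13 (log2 change -0.75). Of 11 epithelial colorectal markers tested, 5 rose and none fell (8 and none with quantile normalization, 9 and none on the TPM scale), among them CDH17, at 19.2 and 19.4 FPKM in E545K, against 9.46 and 9.81 FPKM in WT (log2 change 0.93), and CDX2, at 75.1 and 75.4 FPKM, against 53.8 and 52.4 FPKM (log2 change 0.49).

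Keratins and epithelial junction genes rose in 16 of 30 cases and fell in 2, with a median log2 change of 0.39. KRT7, a keratin of simple epithelia, was at 53.7 and 52.3 FPKM in E545K, against 11.8 and 15.1 FPKM in WT (log2 change 1.91, SE 0.11, limma adjusted p = 8.61e-09). KRT80 was at 121 and 131 FPKM, against 36.0 and 46.2 FPKM in WT (log2 change 1.61), and the desmosomal cadherin DSC2 at 95.5 and 91.9 FPKM, against 42.3 and 34.1 FPKM (log2 change 1.28). The S100, annexin and mesothelin list held 11 genes that rose and 6 that fell of 25. MSLN, the surface glycoprotein mesothelin, was at 17.4 and 16.6 FPKM in E545K, against 0.13 and 0.37 FPKM in WT (log2 change 3.85). S100P, a calcium-binding protein, was at 35.69 and 45.03 FPKM, against 9.06 and 10.6 FPKM in WT (log2 change 1.93).

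Mesenchymal and matrix genes lay mostly on the other side. Of 24 genes, 12 fell and 6 rose, with a median log2 change of -0.27. VIM, the intermediate filament of mesenchymal cells, was at 5.19 and 5.66 FPKM in E545K, against 96.0 and 99.4 FPKM in WT (log2 change -3.94, SE 0.08, limma adjusted p = 1.32e-13). TGFBI, a matrix protein induced by TGF-beta, was at 27.2 and 30.6 FPKM, against 92.8 and 86.9 FPKM in WT (log2 change -1.61), and fibronectin, FN1, at 0.70 and 0.63 FPKM, against 3.45 and 3.39 FPKM (log2 change -1.41). In each gene the 2 lines did not overlap.

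The 6 that rose included THBS1, the matrix glycoprotein thrombospondin, at 15.9 and 14.7 FPKM in E545K, against 6.16 and 5.37 FPKM in WT (log2 change 1.27). LAMB1, a laminin chain, fell to 18.3 and 18.5 FPKM in E545K, against 35.5 and 37.4 FPKM in WT (log2 change -0.95). COL3A1, a fibrillar collagen, is in the list of markers of fibroblast, endothelial and immune cells, where 2 of 5 tested genes fell and 1 rose. It was at 1.44 and 1.29 FPKM in E545K, against 19.6 and 17.3 FPKM in WT (log2 change -3.04). The gene that rose there was the lysosomal glycoprotein CD68, at 37.0 and 35.9 FPKM in E545K, against 24.1 and 34.2 FPKM in WT. Its call was lost without WT replicate 1 (limma adjusted p = 0.51), without E545K replicate 1 (0.151) and without E545K replicate 2 (0.097).

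Other large decreases fell outside these lists. The membrane protein EMP3 was at 1.95 and 2.11 FPKM in E545K, against 21.4 and 24.8 FPKM in WT (log2 change -2.99). WNT5A, a ligand of non-canonical Wnt signalling, was at 2.64 and 2.82 FPKM, against 18.7 and 16.8 FPKM in WT (log2 change -2.33). AGMO, which cleaves ether lipids, ZNF22, a zinc finger protein, and FXYD6, a regulator of the sodium pump, had log2 changes of -3.81, -3.04 and -2.60.

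Wnt targets and intestinal stem cell markers fell in 10 of 21 cases and rose in 2, with a median log2 change of -0.26. Without E545K replicate 1, E545K replicate 2, WT replicate 1 or WT replicate 2 there were 0, 1, 1 and 0 higher and 7, 8, 9 and 9 lower. CD44, a hyaluronan receptor, was at 6.86 and 7.15 FPKM in E545K, against 23.8 and 23.9 FPKM in WT (log2 change -1.64, SE 0.07, limma adjusted p = 2.98e-10). SOX9, a factor of crypt progenitors, was at 21.4 and 20.8 FPKM, against 45.4 and 44.8 FPKM in WT (log2 change -1.06). LGR5, the receptor that marks crypt stem cells, was higher, at 52.0 and 44.8 FPKM in E545K, against 32.5 and 30.7 FPKM in WT (log2 change 0.60, limma adjusted p = 0.00858). That call was lost without E545K replicate 1 (adjusted p = 0.0904) and without WT replicate 2 (adjusted p = 0.061).

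A few genes that most colon cells keep silent were close to off in E545K and on in WT. Of 9 cancer testis, globin and placental genes, 8 fell and 1 rose. This list was assembled with earlier results of these libraries in view, so its direction is no independent evidence. HBE1, embryonic globin, was at 1.24 and 1.89 FPKM in E545K, against 86.1 and 89.3 FPKM in WT (log2 change -5.12). OR51B5, an olfactory receptor gene, was at 0.19 and 0.15 FPKM, against 11.5 and 12.0 FPKM in WT (log2 change -3.45). In GENCODE v29 (GRCh38) HBE1 (chr11:5268345-5505652), OR51B5 (chr11:5303444-5505652) and HBG2 (chr11:5253190-5505605) overlap on the minus strand. In RefSeq HBE1 (chr11:5268345-5269945) and OR51B5 (chr11:5340318-5505652) do not overlap. The annotation behind the FPKM is not given in the sources used here, so how reads were divided among these genes is uncertain.

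MAGEA6, a cancer testis antigen, was at 0.04 and 0 FPKM in E545K, against 21.0 and 19.8 FPKM in WT. Its near-identical neighbour MAGEA3 was listed at 0 in both E545K libraries, against 4.59 and 4.85 FPKM in WT, and the division of reads between them is uncertain. GSTT2B, a glutathione transferase gene with a near-identical copy, was also listed at 0 in both E545K libraries, against 5.69 and 5.01 FPKM in WT. HBA2, an alpha globin gene with a near-identical copy, was at 1.13 and 1.10 FPKM in E545K, against 14.7 and 7.41 FPKM in WT. The placental phosphatase ALPG was at 42.8 and 36.1 FPKM, against 170 and 212 FPKM in WT (log2 change -2.24).

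**Figure D4:**
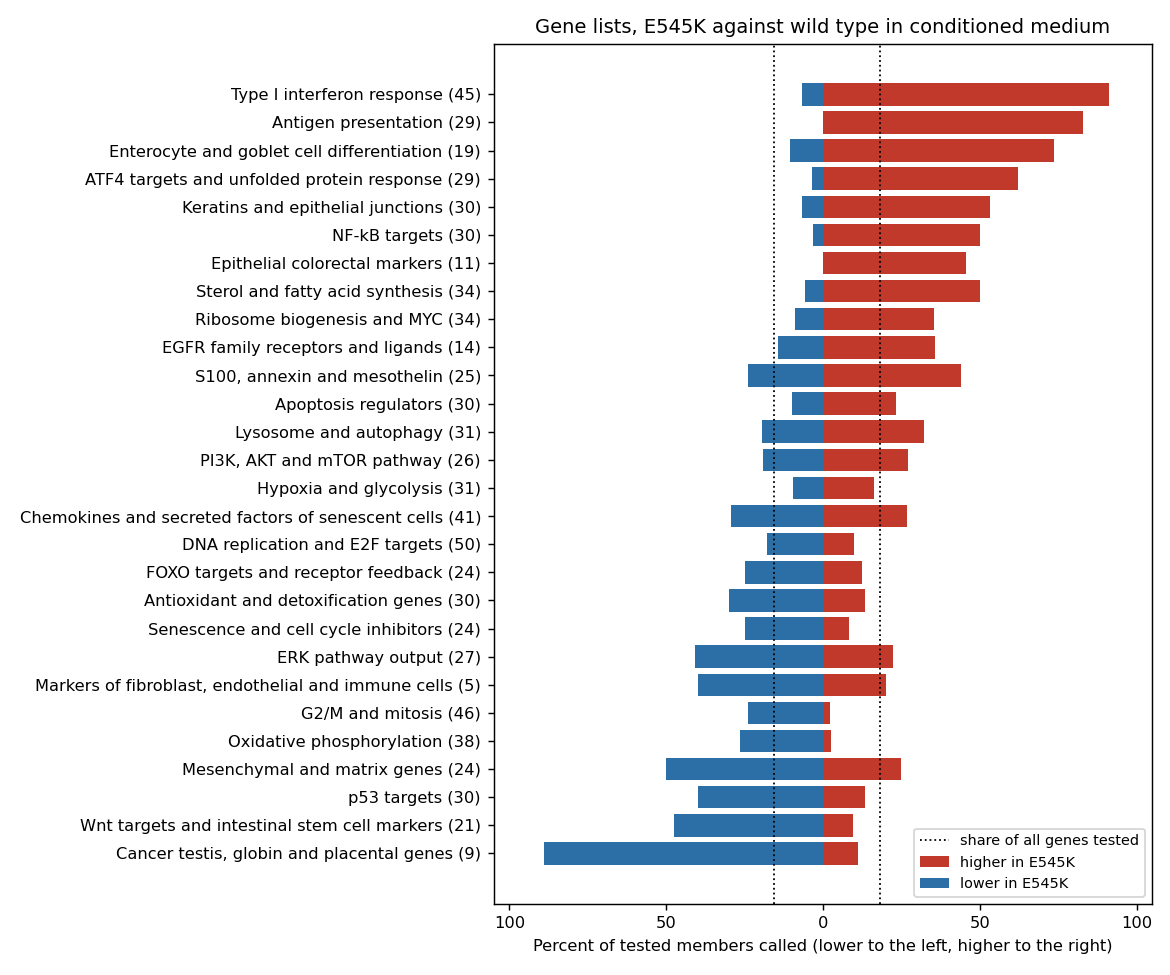
Percent of the tested members of each of 28 gene lists called higher (right) or lower (left) in E545K than in WT in conditioned medium, with the number tested in brackets and dotted lines at the shares over all genes, 18.1% and 15.8%. The interferon list has 41 of 45 higher, and the cancer testis, globin and placental list 8 of 9 lower.

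Every list count can be set against the shares over all genes tested, of which 18.1% rose and 15.8% fell. The DNA replication list and the hypoxia and glycolysis list lay near or below these shares. In the PI3K, AKT and mTOR list, 7 of 26 genes rose, PIK3CA among them, and 5 fell. With median-centred libraries this became 5 and 5. Without E545K replicate 1 or WT replicate 2 there were 5 higher and 3 lower, and without WT replicate 1 there were 4 higher and 5 lower. DDIT4, a stress-induced inhibitor of mTOR complex 1, was at 90.8 and 110 FPKM in E545K, against 32.8 and 44.3 FPKM in WT (log2 change 1.37, SE 0.16, limma adjusted p = 1.56e-05). INPP5D, a lipid phosphatase that acts on the product of PI3K, fell to 0.55 and 0.50 FPKM in E545K, against 1.52 and 1.94 FPKM in WT (log2 change -0.84). The kinase gene AKT1 was not called, at 67.8 and 67.2 FPKM in E545K and 63.0 and 65.0 FPKM in WT (limma adjusted p = 0.54).

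Of 24 FOXO targets and receptor feedback genes, 3 rose and 6 fell. FOXO3 itself was at 14.8 and 15.1 FPKM in E545K, against 5.50 and 6.32 FPKM in WT (log2 change 1.21), and the adaptor IRS1 at 5.66 and 5.47 FPKM, against 8.17 and 9.27 FPKM (log2 change -0.56). IRS2 and INSR, which FOXO factors activate, were not called (limma adjusted p = 0.828 and 0.877).

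Receptors and ligands of the EGFR family rose in 5 of 14 cases and fell in 2. The ligand BTC, betacellulin, was at 11.3 and 11.3 FPKM in E545K, against 5.08 and 4.54 FPKM in WT (log2 change 1.08), and the receptor ERBB3 at 34.6 and 35.2 FPKM, against 19.8 and 21.1 FPKM (log2 change 0.74). LRIG1, which promotes degradation of the receptors, fell to 1.09 and 1.08 FPKM in E545K, against 3.49 and 3.56 FPKM in WT (log2 change -1.12). EGFR was at 67.7 and 66.2 FPKM, against 44.6 and 47.6 FPKM in WT (log2 change 0.53, limma adjusted p = 0.0147). Its call was lost without E545K replicate 1 (adjusted p = 0.0784), E545K replicate 2 (0.0592) or WT replicate 1 (0.0901).

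ERK output genes fell in 11 of 27 cases and rose in 6, and without E545K replicate 2 in 7 and 5. PHLDA1 was at 80.8 and 87.2 FPKM in E545K, against 205 and 202 FPKM in WT (log2 change -1.27, SE 0.06, limma adjusted p = 1.66e-09). The phosphatase DUSP4, a feedback inhibitor of ERK, was at 6.65 and 5.94 FPKM, against 11.4 and 11.6 FPKM in WT (log2 change -0.77), and the ETS factor ETV4 at 28.7 and 30.6 FPKM, against 45.1 and 54.0 FPKM (log2 change -0.72). The receptor EPHA2 was higher, at 88.9 and 89.7 FPKM in E545K, against 46.7 and 56.2 FPKM in WT (log2 change 0.79). EGR1 and FOS were not called. In H1047R minus WT in the same medium, 1 of the 27 genes was higher and 13 lower, with a median log2 change of -0.32. Of all genes tested, 3.06% were higher and 5.31% lower there. E545K minus H1047R had 9 of the 27 higher and 1 lower, against 11.2% and 8.91% of all genes.

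Cell cycle genes differed little in size between the lines in conditioned medium. Of 46 G2/M and mitosis genes, 1 rose and 11 fell, with a median log2 change of -0.07. On the TPM scale 5 were lower, and without E545K replicate 1, E545K replicate 2, WT replicate 1 or WT replicate 2 there were 4, 4, 3 and 8. CDK1 was at 72.0 and 64.4 FPKM in E545K, against 92.2 and 89.8 FPKM in WT (log2 change -0.41, limma adjusted p = 0.00111). The proliferation marker MKI67 was not called, at 58.9 and 55.9 FPKM in E545K and 56.7 and 62.5 FPKM in WT (limma adjusted p = 0.864). Of 50 DNA replication genes, 5 rose and 9 fell, and on the TPM scale this balance turned to 7 higher and 4 lower. Leaving out E545K replicate 1, E545K replicate 2, WT replicate 1 or WT replicate 2 left 1, 1, 5 and 3 higher, and 4, 5, 5 and 7 lower. The licensing factor CDT1 was at 21.8 and 24.4 FPKM, against 32.3 and 40.5 FPKM in WT (log2 change -0.63).

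Among 24 senescence genes and cell cycle inhibitors, 2 rose and 6 fell, and without WT replicate 2 there were 1 higher and 4 lower. Leaving out E545K replicate 1 left none higher, and leaving out E545K replicate 2 or WT replicate 1 left 1. CDKN1C was at 2.75 and 3.14 FPKM in E545K, against 5.12 and 5.81 FPKM in WT (log2 change -0.71), and the pocket protein gene RB1 at 6.29 and 6.10 FPKM, against 10.4 and 9.04 FPKM (log2 change -0.57). CDKN1A, which encodes p21, was not called, at 40.3 and 45.6 FPKM in E545K and 45.45 and 60.02 FPKM in WT (limma adjusted p = 0.067). Targets of p53 fell in 12 of 30 cases and rose in 4, with a median log2 change of -0.18. Without E545K replicate 1 there were 7 lower, without WT replicate 2 there were 6, and on the TPM scale 7. GDF15, a stress cytokine, was at 34.8 and 36.3 FPKM in E545K, against 58.9 and 77.6 FPKM in WT (log2 change -0.91). PLK2 had a log2 change of -0.95, while TP53I3, an oxidoreductase, was at 18.1 and 16.7 FPKM, against 8.00 and 6.41 FPKM in WT (log2 change 1.17).

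Stress and biosynthesis genes rose in part. Of 29 ATF4 targets and unfolded protein response genes, 18 rose and 1 fell, with a median log2 change of 0.48. DDIT3, the stress factor CHOP, was at 51.8 and 59.3 FPKM in E545K, against 17.4 and 17.3 FPKM in WT (log2 change 1.62, SE 0.10, limma adjusted p = 1.22e-08). CHAC1, which degrades glutathione, was at 34.2 and 42.0 FPKM, against 12.6 and 13.6 FPKM in WT (log2 change 1.46), and the p53 and ATF4 target SESN2 at 10.9 and 12.3 FPKM, against 4.67 and 5.31 FPKM (log2 change 1.07). The chaperone HSPA5, a main target of the unfolded protein response, was not called (limma adjusted p = 0.0878).

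Sterol and fatty acid synthesis genes rose in 17 of 34 cases and fell in 2, with a median log2 change of 0.27. Mevalonate kinase, MVK, was at 25.3 and 26.1 FPKM in E545K, against 14.7 and 17.0 FPKM in WT (log2 change 0.67), and CYP51A1, a lanosterol demethylase, at 178 and 179 FPKM, against 123 and 118 FPKM (log2 change 0.56). With median-centred libraries 11 sterol genes were higher and 2 lower. Without E545K replicate 1, E545K replicate 2, WT replicate 1 or WT replicate 2 there were 11, 12, 10 and 12 higher. ME1, which makes NADPH, fell to 37.8 and 40.6 FPKM in E545K, against 79.9 and 75.9 FPKM in WT (log2 change -0.97).

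Antioxidant and detoxification genes fell in 9 of 30 cases and rose in 4. AKR1C3, an aldo-keto reductase with close paralogs, was at 1.06 and 1.18 FPKM in E545K, against 15.7 and 15.1 FPKM in WT (log2 change -2.95). The quinone reductase NQO1 was at 0.54 and 0.23 FPKM, against 2.86 and 3.17 FPKM in WT (log2 change -1.54). Of 38 oxidative phosphorylation genes, 1 rose and 10 fell, and without E545K replicate 1, E545K replicate 2, WT replicate 1 or WT replicate 2 there were 4, 3, 3 and 5 lower. Among them was ATP5MC1, a subunit of ATP synthase, which was at 37.3 and 42.1 FPKM in E545K, against 76.7 and 74.8 FPKM in WT (log2 change -0.92). Ribosome biogenesis and MYC family genes rose in 12 of 34 cases and fell in 3, with MYCL at 15.3 and 16.8 FPKM, against 8.36 and 8.00 FPKM in WT (log2 change 0.89). Median-centring left 6 of these higher and 3 lower, and without E545K replicate 1, E545K replicate 2 or WT replicate 2 there were 5, 6 and 6 higher and 2 lower each.

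The remaining lists were mixed. Hypoxia and glycolysis genes rose in 5 of 31 cases and fell in 3, which became 4 and 4 with median-centred libraries, 10 and 5 with quantile normalization, 12 and 5 with only the compared groups in the fit, 16 and 6 without the H1047R DMSO and palbociclib libraries, and 3 and 3 without any 1 of the 4 libraries, with NDRG1, a hypoxia-induced gene, at 14.7 and 14.3 FPKM in E545K, against 6.83 and 8.67 FPKM in WT (log2 change 0.83). Apoptosis regulators rose in 7 of 30 cases and fell in 3, which became 5 and 5 with median-centred libraries. Without either E545K replicate there were 5 higher and 1 lower, and without WT replicate 2 there were 5 higher and none lower. TNFSF10, the death ligand TRAIL, was at 3.85 and 3.63 FPKM, against 1.57 and 1.82 FPKM in WT (log2 change 0.82). Lysosome and autophagy genes rose in 10 of 31 cases and fell in 6, and median-centring turned this to 5 higher and 7 lower, as did leaving out E545K replicate 1, with 5 and 6. Without WT replicate 1 there were 6 and 5. WIPI1, an autophagy gene, was at 3.28 and 3.10 FPKM, against 6.56 and 6.96 FPKM in WT (log2 change -0.89).

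The comparison was set against the same lines in DMSO, which share no library with it. Of the 2284 genes higher in conditioned medium, 1283 (56.2%) were also higher in E545K in DMSO and 218 were lower there. Of the 1986 lower genes, 418 (21.0%) were also lower in DMSO and 820 (41.3%) were higher. In DMSO 58.8% of all genes tested were called, 48.4% higher and 10.4% lower, and the median change was 0.25, so values from DMSO are given below relative to the median of all genes. The test of the difference between media, which is made before that median is subtracted, called 5937 genes (47.1%), of which 1265 (10.0%) were further up in conditioned medium and 4672 (37.1%) further down. With median-centred libraries these were 2354 and 2610, and with quantile normalization 2450 and 2852. In all 3 media 1099 genes were higher and 377 lower in E545K.

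The interferon difference was far larger in conditioned medium. Of 45 genes, 38 had a larger change there than in DMSO and 2 a smaller one, with a median relative difference of 1.67. In DMSO alone 16 interferon genes were higher and 14 lower in E545K by the test before the median is subtracted, with a median relative change of -0.17. IFI6 averaged 32.8 FPKM in E545K and 53.3 FPKM in WT in DMSO, and 524 FPKM in E545K and 19.8 FPKM in WT in conditioned medium. The 2 lines were therefore in opposite order in the 2 media (relative difference 5.58, limma adjusted p = 2.19e-11). IFI44L averaged 1.70 FPKM in E545K and 7.55 FPKM in WT in DMSO (relative difference 6.34). Other lists differed between these media as well. Of 50 DNA replication genes, 36 were further down in conditioned medium than in DMSO and none further up (median relative difference -0.54). Of 46 G2/M and mitosis genes, 35 were further down and none further up (-0.37). Of 34 sterol and fatty acid synthesis genes, 26 were further up and 2 further down (1.22). Over all genes tested 37.1% were further down and 10.0% further up.

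Of the 24 mesenchymal and matrix genes, 11 were further down in conditioned medium than in DMSO and 3 further up, with a median relative difference of -0.08, against 37.1% and 10.0% of all genes. Single genes differed more. LCN2 averaged 29.6 FPKM in E545K and 39.2 FPKM in WT in DMSO (relative difference 4.41, limma adjusted p = 4.82e-11). CCL20 averaged 0.67 FPKM in E545K and 3.67 FPKM in WT (relative difference 4.94). VIM averaged 56.6 FPKM in E545K and 81.6 FPKM in WT in DMSO, and 46.5 FPKM in E545K and 75.2 FPKM in WT under palbociclib (relative difference from DMSO -3.19). COL3A1 averaged 3.31 FPKM in E545K and 3.46 FPKM in WT in DMSO, where the lines were close (relative difference -2.76). The other genes with the largest negative differences were DUOXA2, LRRN4, JPH2, REEP2, DKK1 and DHRS2. DKK1, a secreted Wnt inhibitor, averaged 80.2 FPKM in E545K and 19.9 FPKM in WT in DMSO, and was at 39.7 and 39.2 FPKM in E545K, against 61.1 and 58.3 FPKM in WT, in conditioned medium.

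Some differences were present in both media. MSLN averaged 12.5 FPKM in E545K and 0.69 FPKM in WT in DMSO, and HBE1 averaged 4.99 FPKM in E545K and 148 FPKM in WT. MAGEA6 averaged 0.03 FPKM in E545K and 8.71 FPKM in WT, and OR51B5 0.53 FPKM in E545K and 13.6 FPKM in WT. ICAM1 averaged 5.34 FPKM in E545K and 0.47 FPKM in WT. For HBE1 and OR51B5 the difference between the media was not called (limma adjusted p = 0.0543 and 0.319).

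**Figure D5:**
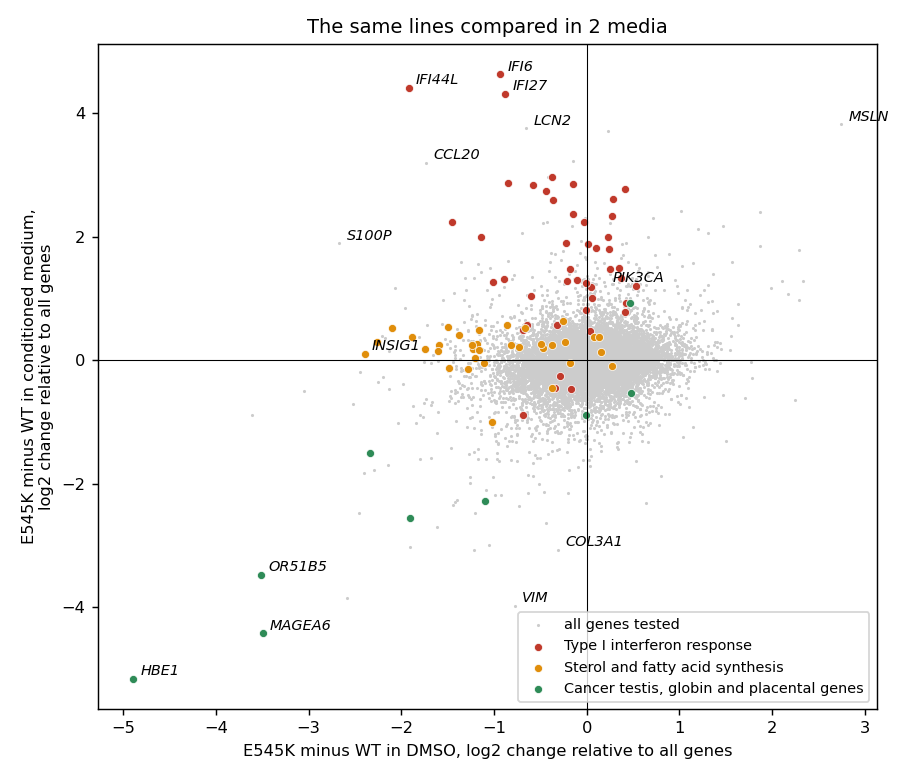
Log2 change, E545K minus WT, in conditioned medium (vertical) against the same in DMSO (horizontal), both relative to the median of all genes, for the 12607 genes tested. IFI6, IFI27, IFI44L, LCN2 and CCL20 lie high with x below 0, VIM and COL3A1 lie low near the vertical axis, and HBE1, OR51B5 and MAGEA6 lie low on both axes.

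Against palbociclib, the difference between media called 6209 genes (49.3%), 1707 (13.5%) further up in conditioned medium and 4502 (35.7%) further down, which with median-centring were 2773 and 2824. Of the 2284 higher genes, 1493 (65.4%) were also higher in E545K under palbociclib, and of the 1986 lower genes 832 (41.9%) were also lower. Under palbociclib 65.1% of all genes were called, 45.7% higher and 19.4% lower, with a median change of 0.20. Of the 45 interferon genes, 32 were higher and 2 lower in E545K under palbociclib, and 31 had a larger and 6 a smaller change in conditioned medium. IFI6 averaged 245 FPKM in E545K and 194 FPKM in WT under palbociclib (relative difference 4.53), so both lines were high there. SAMD9 averaged 24.4 FPKM in E545K and 3.78 FPKM in WT under palbociclib, and its change did not differ between the media at the threshold (limma adjusted p = 0.0567).

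Some of the largest positive differences from palbociclib were in genes far below WT in E545K under palbociclib. S100P, which rose in conditioned medium, averaged 30.8 FPKM in E545K and 217 FPKM in WT under palbociclib (relative difference 4.91). INSIG1, a sterol-regulated inhibitor of sterol synthesis, averaged 17.9 FPKM in E545K and 431 FPKM in WT there, and was at 124 and 127 FPKM in E545K, against 106 and 122 FPKM in WT, in conditioned medium (relative difference 4.85). The growth factor carrier FGFBP1 and the phosphatase DUSP5 were placed in the same way (relative differences 4.32 and 3.73). At the other end LRRN4, COL3A1, SLC39A2 and VIM had relative differences of -4.61, -3.23, -3.13 and -3.06, followed by IL37, DKK1, CXCL2 and ALDH1A3.

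In H1047R cells in the same medium most interferon genes were below E545K. E545K minus H1047R called 2533 genes (20.1%), 1410 higher (11.2%) and 1123 lower (8.91%). Leaving out any of the 4 libraries of this comparison left 1464 to 1546, and a fit of the compared groups alone called 4312. Of the 45 interferon genes, 38 were higher and 2 lower in E545K than in H1047R, with a median log2 difference of 1.49. IFI6 was at 553 and 496 FPKM in E545K, against 23.0 and 24.2 FPKM in H1047R (log2 difference 4.41, SE 0.12, limma adjusted p = 1.41e-12). In H1047R minus WT, which shares the WT libraries with the main comparison, 14 interferon genes were higher and 2 lower, with a median of 0.26, where 8.38% of all genes were called, 3.06% higher and 5.31% lower.

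VIM was at 5.19 and 5.66 FPKM in E545K, against 55.2 and 57.1 FPKM in H1047R (log2 difference -3.15). LCN2 was at 235 and 249 FPKM in E545K, against 44.9 and 46.0 FPKM in H1047R (log2 difference 2.39). H1047R also differed from WT in these genes, with VIM called lower (log2 difference -0.79) and LCN2 called higher. CCL20, PHGR1 and PIGR were called higher in H1047R than in WT too (log2 differences 1.77, 1.53 and 1.42). Each was called higher still in E545K than in H1047R. REG4 and MSLN were not called in H1047R minus WT (limma adjusted p = 0.976 and 0.566). Of the 24 mesenchymal and matrix genes, 6 were higher and 5 lower in E545K than in H1047R, with a median log2 difference of 0.03. In H1047R minus WT, 2 of them were higher and 7 lower, with a median of -0.21. The shares over all genes in both comparisons are given above. CRIP1, a LIM domain protein, was at 30.3 and 31.7 FPKM in E545K, against 0.09 FPKM in both H1047R libraries (log2 difference 4.88). ZNF22 was at 0.13 and 0.05 FPKM in E545K, against 10.9 and 10.3 FPKM in H1047R (log2 difference -3.41). FXYD2, the gamma subunit of the sodium pump, was listed at 0 in both E545K libraries, against 20.1 and 23.9 FPKM in H1047R. LRRN4, AKR1C3 and CXorf49B were also among the furthest below H1047R, and REG4 and MSLN among the furthest above. DAZ2 and DAZ4, which share near-identical sequence, were above H1047R too, and no value is given for them.

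Other genes were low, or high, in both mutant lines. HBE1 was at 1.24 and 1.89 FPKM in E545K, against 0.96 and 0.77 FPKM in H1047R (log2 difference 0.45, limma adjusted p = 0.0321), and OR51B5 at 0.19 and 0.15 FPKM, against 0.08 FPKM in both H1047R libraries. MAGEA6 was at 0.04 and 0 FPKM in E545K, against 0 and 0.02 FPKM in H1047R. CD74 was at 47.8 and 46.5 FPKM in E545K, against 44.0 and 48.4 FPKM in H1047R (log2 difference 0.03, SE 0.14, limma adjusted p = 0.915).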

How the data were processed

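Poly(A) RNA of LoVo cells was sequenced, and the authors deposited FPKM per gene, per the file headers. The submitters' processing notes list RSEM 1.3.1, DESeq2 1.4.5, Bowtie2 2.3.4.3, HISAT2 2.1.0 and GRCh38 (hg38), with no role for any. Strandedness and read depth are not given in the sources used here, so overlapping genes and near-identical copies are uncertain. From the table of 18 libraries (9 groups of 2), genes with at least 1 FPKM in at least 2 libraries (12607 of 18165) were fitted together on log2(FPKM + 1) with limma 3.58.1 in R 4.3.3, with an intensity trend. Tests were two-sided, with Benjamini-Hochberg adjustment over all genes and calls below 0.05. The fit was tested on simulated data. Residual degrees of freedom were 9. Differences between media and between mutants are contrasts of the same fit. The comparison and its 28 gene lists were chosen with earlier results of these data known.

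Named were PIK3CA, the 14 called genes with the largest change in each direction (values of the 2 lines not overlapping, mean of at least 5 FPKM in the higher group), up to 6 called members per list by size of change, and the 8 largest in each direction of the other contrasts. Members that mark a pathway were named whatever their result. Some genes under these rules are not reported here. Alternatives changed the pseudocount, filter, scaling, fit and replicate block, or left out single libraries. Figures were drawn with matplotlib 3.10.9.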

Additional observations from a re-analysis of the deposited data

Results flagged for a closer look

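Each of these results differed between media by the test of the difference itself, E545K minus WT in conditioned medium minus the same in DMSO or palbociclib. The test called 5937 genes against DMSO and 6209 against palbociclib. Values below are log2 differences against DMSO, relative to the median of all genes.

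Among interferon genes the difference was 6.34 for IFI44L, 5.58 for IFI6, 5.20 for IFI27, 3.72 for OAS2, 3.42 for IRF7, 3.34 for MX2, 3.00 for IRF9 and 2.36 for SAMD9. Among secreted and mucosal genes it was 4.94 for CCL20, 4.41 for LCN2, 3.48 for REG4, 3.40 for PIGR and 3.38 for PHGR1. It was 1.08 for MSLN and 1.01 for PIK3CA, whose mRNA averaged 7.79 FPKM in E545K and 5.40 FPKM in WT in DMSO.

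Among genes further below WT in conditioned medium it was -3.19 for VIM, -2.76 for COL3A1, -2.19 for FXYD6 and -1.92 for AKR1C3. It was -1.85 for ZNF22, -1.62 for WNT5A, -1.25 for AGMO, -1.11 for EMP3 and -0.92 for MAGEA6. AGMO and MAGEA6 averaged below 1 FPKM in E545K in both media (0.745 and 0.025 FPKM in DMSO, 0.385 and 0.02 FPKM in conditioned medium). Their WT means were 7.845 and 8.715 FPKM in DMSO and 18.435 and 20.36 FPKM in conditioned medium.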

How the results depend on the processing

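Of 216 results on named genes, 190 kept their direction and their side of the threshold under every alternative. Over 2923 alternatives 2845 kept both, 78 kept the direction and lost the call, and none changed direction. Apart from PIK3CA, these results were named for being called with the largest changes in the same data. Part of this stability follows from that choice. Leaving out 1 library gave 2720 to 3133 calls in the comparison of E545K with WT in conditioned medium, 1393 to 1619 higher and 1327 to 1558 lower. With fewer samples in the fit, E545K minus H1047R gave 1464 to 1546 calls, 826 to 883 higher and 630 to 703 lower. With only the compared groups in the fit, E545K minus WT in conditioned medium gave 5656 calls, 3092 higher and 2564 lower. In the same setting E545K minus H1047R gave 4312, 2429 higher and 1883 lower. A further alternative left out the H1047R DMSO and palbociclib libraries. It was chosen after seeing the data because their replicates differed more (residual SD 0.170 and 0.232, against 0.095 to 0.116 in the other groups). E545K minus WT in conditioned medium then gave 5973 calls, 3252 higher and 2721 lower. E545K minus H1047R then gave 4047, 2277 higher and 1770 lower. The difference from DMSO gave 2450 higher and 2852 lower with quantile normalization and 2354 and 2610 with median-centring, and the difference from palbociclib 2851 higher with quantile normalization and 2773 higher and 2824 lower with median-centring. The cause was not tested. Of 728 list counts under alternatives, 117 moved by over 1.5 times. The replicate numbers were not taken to pair libraries: deviations of same-numbered libraries of E545K and WT in conditioned medium correlated at -0.04, and over 36 pairs of groups at -0.56 to 0.55. With the replicate block 4324 genes were called, 2306 higher and 2018 lower, and of the named results NDUFA2 lost its call. FPKM carries no depth, and 2 libraries a group limit the precision.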

Other observations

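The genes here were chosen after their values were seen, and are described without a test. Some genes that handle retinoids differed between the lines in conditioned medium. CRABP1, which binds retinoic acid, was at 10.0 and 10.5 FPKM in E545K, against 47.3 and 50.3 FPKM in WT, and ALDH1A3, which makes retinoic acid, at 73.1 and 68.4 FPKM, against 146 and 150 FPKM. CRABP2 was at 1.02 and 0.59 FPKM in E545K, against 1.24 and 1.26 FPKM in WT, and ALDH1A1 went the other way, at 0.48 and 0.53 FPKM, against 0.29 and 0.24 FPKM. The receptor gene RARA was at 5.57 and 5.59 FPKM in E545K, against 4.22 and 5.83 FPKM in WT, and RARG at 11.87 and 10.30 FPKM, against 13.45 and 13.58 FPKM. DUOX2, a hydrogen peroxide producing oxidase of the gut surface, was at 42.5 and 42.8 FPKM in E545K, against 97.3 and 116 FPKM in WT. Its maturation factor DUOXA2 was at 15.6 and 18.8 FPKM, against 79.0 and 96.4 FPKM in WT, and both mutant lines were low, since H1047R had 13.9 and 15.6 FPKM.

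The values of 4 further genes stood well apart between the lines. APOBEC3G, a cytidine deaminase that restricts retroviruses, was at 0.59 and 0.64 FPKM in E545K, against 6.41 and 7.17 FPKM in WT, and APOBEC3C at 13.3 and 11.7 FPKM, against 34.3 and 38.2 FPKM. H1047R had 7.61 FPKM of APOBEC3G in both libraries. The ubiquitin ligase TRIM31 was at 232 and 230 FPKM, against 46.6 and 48.5 FPKM in WT, and the prostaglandin transporter SLCO2A1 at 70.0 and 69.2 FPKM, against 17.7 and 18.7 FPKM.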
